A study of Mus musculus with 19 samples.

Results

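The genes described here are 9 mitotic kinases and the phosphatase gene Cdc25c, 10 genes in all of 1609 in the authors' deposited table of log2 ratios. They are Cdk1, Cdc25c, Plk1, Aurka, Aurkb, Nek2, Ttk, Bub1, Bub1b and Melk. The choice was made by name among mitotic regulators with a row, with earlier results of these data known. Counts among the 10 are therefore descriptions. The study sorted cells of mouse skin squamous cell carcinoma (strain C57BL/6), grown as allografts from 10000 cells placed in the skin, by the transferrin receptor CD71 and by the H2B-GFP histone label, which is diluted at each division. Proliferative cells were CD71hi H2BGFPlo, quiescent cells CD71lo H2BGFPhi and double negative cells CD71lo H2BGFPlo, each with 1 RNA library of 100000 cells from tumour SCC1 and 1 from tumour SCC2. ATAC-seq, which maps accessible chromatin, covered these populations and CD71hi H2BGFPhi cells in both tumours, plus 2 libraries of tumour SCC3 with the genotype Tgfbr2KO, from 50000 cells each. Smad2/3 ChIP-seq came from SCC1 cells kept in culture with 50 uM calcium and 5 ng/mL TGFβ1 for 1 h, beside input DNA of SCC1 and SCC2. The labels give no genotype for SCC1 and SCC2, no age and no number of mice.

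Mitosis is run by protein kinases whose RNA and protein build up in G2 and M phase and are low in cells that have left the cycle. Cdk1 bound to cyclin B starts mitosis once a Cdc25 phosphatase has removed its inhibitory phosphates, Polo-like and Aurora kinases build the spindle, and the checkpoint kinases Ttk and Bub1, with the related Bub1b protein, hold back chromosome separation until every kinetochore is attached. In skin these genes are expressed in dividing keratinocytes of the basal layer and of squamous carcinomas.

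All 10 genes had less RNA in quiescent than in proliferative cells, and in double negative than in proliferative cells, in both tumours. Of all 1609 genes, 52.3% were lower in both tumours in the quiescent comparison and 50.9% in the double negative one. Double negative cells held about the same share of the proliferative level in SCC1 and SCC2. Quiescent cells did not: per the authors' deposited table the median log2 ratio of the 10 genes against proliferative cells was -4.90 in SCC1 and -1.73 in SCC2, or 3.36% and 30.1% of the proliferative level. The double negative medians were -3.47 in SCC1 and -3.28 in SCC2, per the authors' deposited table, or 9.03% and 10.3%. With the same scale, quiescent cells stood below double negative cells for all 10 genes in SCC1 and above them for all 10 in SCC2, with Bub1b at -0.07 in SCC1 per the authors' deposited table. These opposite signs were found for 40.8% of all genes, and for 74.6% of the 299 genes called lower in both slow populations. With each column centred on its own median over all genes, the SCC1 value of Bub1b was 0.16. Over the 2 tumours the reduction in double negative cells passed limma's test for 10 of 10 genes, beside 30.3% of all genes. The reduction in quiescent cells passed for 0 of 10, beside 0.373%. This test rests on 2 ratios per gene, was chosen after the ratios were seen and ran over genes that the authors had selected. The 10 genes were themselves chosen with earlier results of these data known, so the passes among them are descriptions.

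The table gives neither expression levels nor errors, the read depth under a ratio is unknown, and with 1 library of each population in a tumour a test of a gene rests on 2 ratios and a comparison of the tumours has no replicate. A ratio is the log2 of the first population over the second, so -1 is a 2-fold lower and 1 a 2-fold higher level. Where values are given in pairs, SCC1 comes first. A gene is called here when its ratio is 1 or more in size with the same sign in both tumours. Fewer dividing cells in a sorted population and less of these RNAs per cell cannot be told apart in such bulk libraries. Tfrc, which encodes the CD71 used for sorting, stood at -1.72 in SCC1 and -1.55 in SCC2 for quiescent against proliferative cells per the authors' deposited table. Of 11 keratinocyte markers 1, Epcam, has a row, so the labelled cell type could not be checked against its keratins here. Epcam stood at -3.21 and -0.40 for quiescent, and at -1.93 and -0.68 for double negative, against proliferative cells per the authors' deposited table. For quiescent against double negative cells Epcam was at -1.32 and 0.26 per the authors' deposited table. The submitters' processing notes name mm9 beside mm10 for the double negative libraries, and the part of this in the ratios was not tested.

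**Figure D1:**
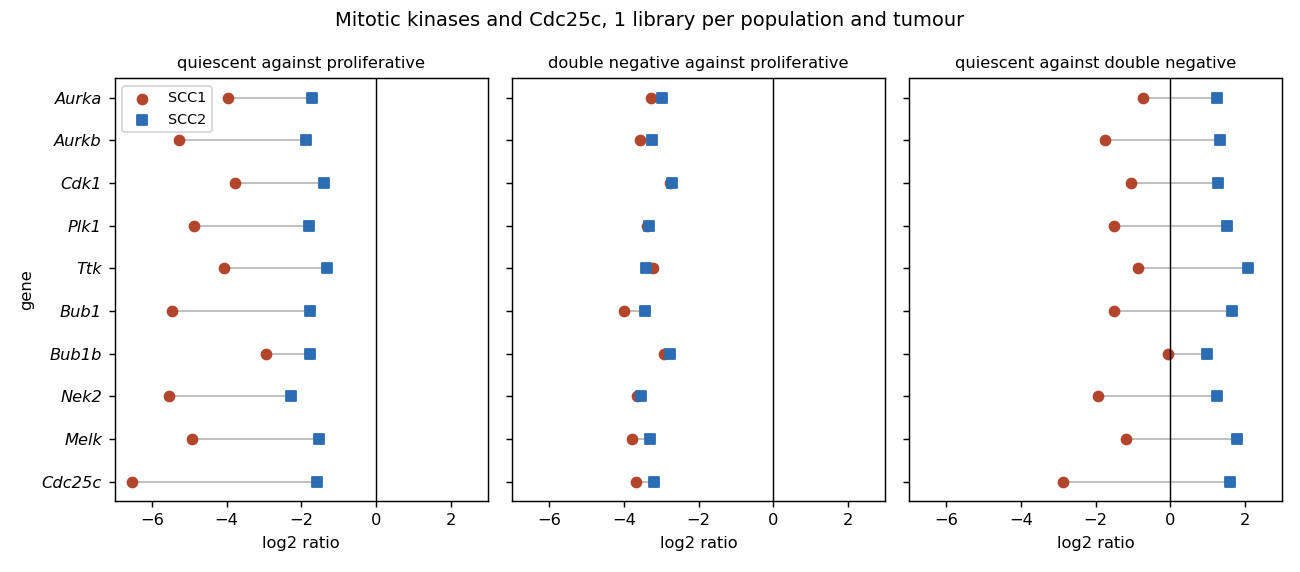
Log2 ratio (x axis) of each of the 10 genes (y axis) in the 3 comparisons of sorted populations, with a circle for SCC1 and a square for SCC2, 1 library per population and tumour. The symbols nearly coincide for double negative against proliferative cells and lie on opposite sides of 0 for quiescent against double negative cells, where Bub1b in SCC1 is at -0.07.

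Cdk1, the kinase that drives entry into mitosis, had a log2 ratio for quiescent against proliferative cells of -3.78 in SCC1 and -1.40 in SCC2, per the authors' deposited table. This is 7.3% and 37.9% of the proliferative level. For double negative against proliferative cells it stood at -2.75 and -2.70 per the authors' deposited table, the smallest reduction among the 10 genes in each tumour. Cdk1 in double negative cells was thus at nearly the same share, 14.8% and 15.4%, in both tumours. The quiescent cells held 47.9% of the double negative level in SCC1 and 243% in SCC2.

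The promoter of Cdk1 is shown because it was the 1 of 8 that held a CCAAT box with both the TTTGAA element and an E2F site. It is read from RefSeq, build GRCm38.p6, at chr10:69352913-69353062 on the minus strand, the 150 bases before the annotated start site. Capitals mark matches to the CCAAT box (CCAAT or its reverse complement), to the cell cycle homology region (TTTGAA) and to an E2F site (TTTCGCGC).

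Cdk1: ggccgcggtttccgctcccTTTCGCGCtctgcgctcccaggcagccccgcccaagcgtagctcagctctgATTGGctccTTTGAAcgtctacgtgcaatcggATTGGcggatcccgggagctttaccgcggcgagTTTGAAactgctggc

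Cdc25c, the phosphatase that activates Cdk1, showed the widest gap between the tumours in both comparisons that use quiescent cells. Its log2 ratio for quiescent against proliferative cells was -6.52 in SCC1, the lowest of the 10 genes, and -1.58 in SCC2, per the authors' deposited table. Quiescent cells thus held 1.09% of the proliferative level in SCC1 and 33.5% in SCC2. For double negative against proliferative cells the ratios were -3.68 and -3.19 per the authors' deposited table, inside the range of the other genes. Against double negative cells, quiescent cells stood at -2.88 in SCC1 and 1.59 in SCC2, per the authors' deposited table. The SCC1 value is the lowest and the SCC2 value is close to the median of 1.42.

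Plk1, a kinase that acts from mitotic entry to cytokinesis, lay nearest to the median profile of the group, with a root mean square difference of 0.0947 over the 6 log2 columns. Its ratios for quiescent against proliferative cells were -4.86 in SCC1 and -1.80 in SCC2, and for double negative against proliferative cells -3.38 and -3.34, per the authors' deposited table. Double negative cells therefore held 9.58% and 9.88% of the proliferative level. Against double negative cells, quiescent cells stood at -1.52 and 1.51 per the authors' deposited table, equally far below and above. Nek2, which drives the separation of centrosomes, had the lowest quiescent ratio of the group in SCC2, -2.27, and stood at -5.54 in SCC1, per the authors' deposited table. It was the gene that passed a 4-fold reduction in quiescent cells of both tumours, at 2.15% and 20.7% of the proliferative level. Its double negative ratios were -3.64 and -3.54, and its quiescent against double negative ratios -1.94 and 1.24, per the authors' deposited table.

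The Aurora kinases differed from each other mainly in SCC1. Aurka, which works at centrosomes and spindle poles, had quiescent ratios of -3.95 in SCC1 and -1.71 in SCC2, per the authors' deposited table. Aurkb, the catalytic subunit of the chromosomal passenger complex, had -5.28 and -1.88 per the authors' deposited table. Aurka was thus 1.33 above Aurkb in SCC1 and 0.17 above it in SCC2 on the log2 scale. In double negative cells the same differences were 0.29 and 0.25, with Aurka at -3.27 and -2.99 and Aurkb at -3.56 and -3.25 per the authors' deposited table. Quiescent against double negative ratios were -0.72 and 1.25 for Aurka and -1.76 and 1.33 for Aurkb per the authors' deposited table, again nearly equal in SCC2 alone. The reference lists 1 pseudogene named after Aurkb, so reads of that gene could have been shared between the copies.

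The spindle checkpoint genes differed among themselves, more so in SCC1 quiescent cells. Ttk, the kinase that starts checkpoint signalling at kinetochores, had quiescent ratios of -4.06 in SCC1 and -1.31 in SCC2, per the authors' deposited table, the smallest reduction of the 10 in SCC2. Against double negative cells it stood at -0.88 and 2.09 per the authors' deposited table, so that quiescent cells of SCC2 held 425% of the double negative level, the highest of the group. Bub1, a kinetochore kinase that recruits the other checkpoint proteins, had quiescent ratios of -5.45 and -1.77, and double negative ratios of -3.99 and -3.44, per the authors' deposited table. Its SCC1 double negative value, 6.29% of the proliferative level, is the lowest of the 10. Quiescent cells held 35.4% of the double negative level of Bub1 in SCC1 and 314% in SCC2.

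Bub1b, which encodes the BubR1 part of the mitotic checkpoint complex, had the smallest reduction in quiescent cells of SCC1. Its quiescent ratios were -2.95 in SCC1 and -1.76 in SCC2, and its double negative ratios -2.92 and -2.77, per the authors' deposited table. In SCC1 the quiescent and double negative cells thus held 12.9% and 13.2% of the proliferative level, nearly the same. The ratio of Bub1 minus that of the related Bub1b was -2.50 for quiescent cells of SCC1, with Bub1 lower, and -0.01 for those of SCC2. Melk, a kinase whose RNA is abundant in cycling cells, had quiescent ratios of -4.93 and -1.52 and double negative ratios of -3.78 and -3.31 per the authors' deposited table. Quiescent cells held 43.9% of its double negative level in SCC1 and 341% in SCC2.

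Called lower in quiescent than in proliferative cells were 10 of 10 genes, where 23.3% of all 1609 genes were called lower. With each column centred on its median over all genes 8 of 10 were called, beside 10.9% of all genes, and Ttk and Cdk1, the smallest reductions in SCC2, were not. The same count for double negative against proliferative cells was 10 of 10, beside 25.2% of all genes. At 4-fold or more, 10 of 10 were lower in double negative cells of both tumours, beside 10.5% of all genes, and 1 of 10, Nek2, in quiescent cells, beside 4.35%. For quiescent against double negative cells 0 of 10 were called, beside 3.6% of all genes called in either direction. By limma on the 2 ratios of each gene, with Benjamini-Hochberg adjustment over all genes, the reduction in double negative cells passed adjusted p under 0.05 for 10 of 10, beside 30.3% of all genes. Their adjusted p-values from limma were 0.0319 to 0.0322, with mean log2 ratios such as -2.73 ± 0.151 (SE) for Cdk1 and -3.72 ± 0.234 for Bub1, lower in both tumours. The reduction in quiescent cells passed for 0 of 10, beside 0.373% of all genes, with limma's adjusted p from 0.172 to 0.189, although all 10 were lower in both tumours. Its mean log2 ratio was -2.35 ± 0.479 (SE) for Bub1b, the 1 gene of the 10 with an unadjusted p under 0.05 in limma (0.0316), and -4.05 ± 1.68 for Cdc25c. Of all 1609 genes, 276 were lower in quiescent cells at that unadjusted threshold. For quiescent against double negative cells 0 of 10 passed limma at an adjusted or unadjusted p under 0.05, beside 0.435% of all genes at the adjusted one. At the unadjusted one 35 of all 1609 genes were lower and 13 higher. This test was chosen after the ratios were seen, and the 10 genes with earlier results of these data known, so the passes among them are descriptions. The comparisons share libraries, and the table holds genes that the authors selected by a rule not given in the sources used here, so none of these shares describes all expressed genes.

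In the ratios against proliferative cells the 10 lay towards the low end of the table. In SCC1 their quiescent against proliferative ratios ranked between 13 and 171 of 1609 from the lowest, and in SCC2 between 70 and 347. The double negative against proliferative ranks were 16 to 120 in SCC1 and 23 to 120 in SCC2. For quiescent against double negative cells they ranked 48 to 1042 in SCC1 and 1312 to 1497, towards the high end, in SCC2. The median ratio of all genes lay between -0.61 and 0.13 over the 6 columns of the authors' deposited table.

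**Figure D2:**
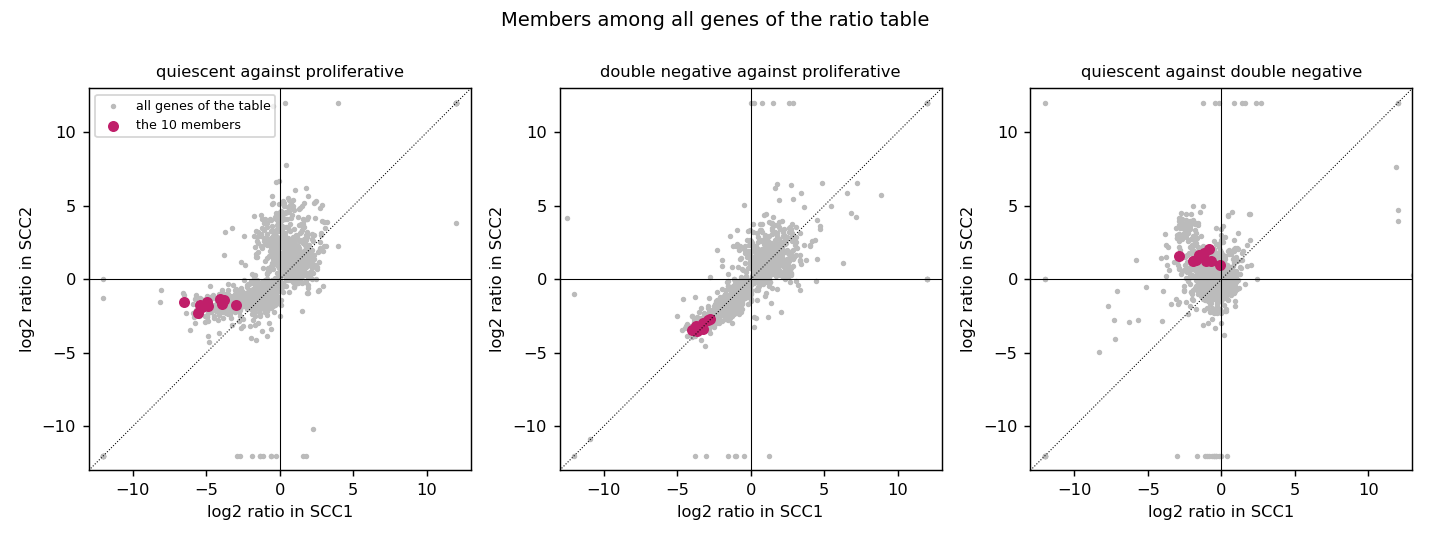
Log2 ratio in SCC2 (y axis) against SCC1 (x axis) for all 1609 genes (grey) and the 10 genes (red), with equal ratios on the dotted line. The 10 genes sit on the line for double negative against proliferative cells, above it for quiescent against proliferative cells, and in the upper left for quiescent against double negative cells.

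The difference between the tumours lay in the columns that use the quiescent libraries. For quiescent against proliferative cells the SCC1 ratio was below the SCC2 ratio for 10 of 10 genes, beside 61.8% of all genes, with SCC1 minus SCC2 from -4.95 (Cdc25c) to -1.20 (Bub1b) on the log2 scale. For double negative against proliferative cells it was below for 9 of 10, beside 45.6% of all genes, and the difference, SCC1 minus SCC2, ran from -0.55 (Bub1) to 0.19 (Ttk). The 5th and 95th percentiles of all genes were -1.77 and 1.44 on this last measure, so the tumours were closer for the 10 genes than for many others. The spread among the 10 genes followed the same split: their quiescent against proliferative ratios spanned 3.57 in SCC1 and 0.96 in SCC2, and their double negative ratios 1.24 and 0.84.

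Quiescent against double negative ratios below 0 in SCC1 and above 0 in SCC2 were found for 10 of 10 genes, Bub1b included at -0.07 before centring, beside 40.8% of all genes. A 2-fold difference in each tumour was reached by 7 of 10, beside 8.58% of all genes. Closer genes for comparison are the 299, the 10 included, that were called lower in both slow populations. Of these, 74.6% had the opposite signs at any size and 14.7% at 2-fold. The pattern is thus frequent among genes low in both slow populations, and its 2-fold form was held by 44 of the 299. The columns of a tumour are not independent, since the quiescent against proliferative ratio equalled the sum of the others to within 0.0384 to 0.0399 in SCC1 and 0.0186 to 0.0345 in SCC2 for the 10 genes.

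Markers of other cells also had opposite signs in the tumours for quiescent against double negative cells. Of 15 fibroblast markers 13 had a row, and 12 of these were below 0 in SCC1 and above 0 in SCC2, with medians of -2.68 and 3.04 per the authors' deposited table. Of 16 immune markers 6 had a row, 5 with the same opposite signs, and medians of -1.60 and 2.30 per the authors' deposited table. The endothelial markers Cldn5 and Egfl7, 2 of 10 listed, were below 0 in both tumours, at -7.70 and -4.00 in SCC1 and -1.81 and -0.79 in SCC2, per the authors' deposited table. For double negative against proliferative cells the fibroblast medians were 2.58 and 1.45 and the immune medians 1.30 and 0.68 per the authors' deposited table, and the range of the fibroblast ratios was -1.55 to 4.39 in SCC1 and -2.75 to 2.65 in SCC2. Both endothelial markers were called higher in that comparison, Cldn5 at 6.84 and 4.53 and Egfl7 at 3.34 and 1.63, per the authors' deposited table. For quiescent against proliferative cells the fibroblast medians were 0.08 in SCC1 and 4.28 in SCC2, per the authors' deposited table, opposite in direction to the 10 genes in SCC2. Single markers went against their list: Fbln1 was lower in quiescent than in proliferative cells, at -2.79 in SCC1 and -1.95 in SCC2, per the authors' deposited table. Dcn, at 2.75 and 2.54, and H2-Ab1, at 1.65 and 2.49, were the markers called higher there, per the authors' deposited table. The part of such cells in the ratios of the mitotic genes was not tested.

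RNAs for proteins that work with these kinases were also low in quiescent cells. Of 13 listed partners and regulators of Cdk1, 8 had a row and 8 were called lower in quiescent cells, with medians of -3.04 (SCC1) and -1.66 (SCC2) per the authors' deposited table. The cyclin B genes, whose proteins activate Cdk1, were nearest to the kinases: Ccnb1 stood at -5.70 and -2.12 and Ccnb2 at -5.74 and -1.32 per the authors' deposited table. Ccna2, the cyclin A gene, stood at -3.77 and -1.70, and Mastl, the kinase that restrains the phosphatase opposing Cdk1, at -3.39 and -2.34, per the authors' deposited table. The smallest reductions called were those of Cks1b (-2.12, -1.01), a small Cdk-binding protein, and of the phosphatase gene Cdc25b (-1.96, -1.62) per the authors' deposited table. Cdc25b and Cdc25c thus differ far more in SCC1 than in SCC2.

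Of 14 Aurora and Plk1 partners 13 had a row and 11 were called lower, with medians of -3.23 and -1.68 per the authors' deposited table. Pbk, a mitotic kinase, stood at -5.52 and -1.70, Hmmr, a spindle protein, at -5.02 and -1.82, Sgol1, which protects centromere cohesion, at -5.19 and -1.37, and Birc5, a chromosomal passenger, at -4.82 and -1.34, per the authors' deposited table. Bora, the activator of Aurka towards Plk1, was at -1.55 and -1.40 and Fam83d at -1.20 and -1.43 per the authors' deposited table. Both were called lower and by far less than Aurka or Plk1 in SCC1. Of 12 spindle checkpoint partners 7 had a row and 6 were called lower, with medians of -3.44 and -2.31 per the authors' deposited table. Casc5, the kinetochore scaffold that holds Bub1 and Bub1b, stood at -5.81 and -2.57, the kinesin gene Cenpe at -4.98 and -2.52, Spdl1 at -3.35 and -2.65 and Cdc20 at -4.54 and -1.28 per the authors' deposited table. Cdc20 activates the anaphase-promoting complex, and Mad2l1 (-3.13, -1.58) is part of the complex that restrains it, while Trip13 (-3.44, -2.31) takes that complex apart, with the ratios from the authors' deposited table.

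Of 12 genes for the anaphase-promoting complex and exit from mitosis 8 had a row and 6 were called lower, with medians of -3.11 and -1.40 per the authors' deposited table. Its ubiquitin-conjugating enzyme Ube2c stood at -5.15 and -1.42, the separase gene Espl1 at -4.38 and -2.00 and its inhibitor Pttg1 at -3.15 and -1.13 per the authors' deposited table. Fbxo5 (-3.20, -1.47), an inhibitor of the complex, Prc1 (-3.06, -1.48), which bundles spindle microtubules, and the subunit Cdc23 (-1.74, -1.38) complete those named from the authors' deposited table.

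Regulators of transcription that act on G2/M promoters had a smaller median reduction. Of 13 listed 7 had a row and 5 were called lower, with medians of -1.51 (SCC1) and -1.24 (SCC2) per the authors' deposited table. Foxm1, an activator of G2/M genes, stood at -3.46 and -1.59, E2f8, a repressor of the E2F family, at -3.69 and -1.98, and Lin9, a MuvB subunit, at -1.51 and -2.96 per the authors' deposited table. Lin54, the MuvB subunit that binds DNA, was at -1.24 and -1.24 and the pocket protein gene Rbl1 at -1.30 and -1.21 per the authors' deposited table. Not called were Mybl2, at -3.95 and -0.94, and E2f1, at -0.59 and -1.13, per the authors' deposited table. In SCC1 Foxm1, E2f8 and Mybl2 lay within the range of the 10 genes. For Lin9 and E2f1 the reduction was smaller in SCC1 than in SCC2, the reverse of the 10 genes.

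Genes of S phase were also lower. Of 19 replication origin genes 17 had a row and 13 were called lower, with medians of -2.13 and -1.30 per the authors' deposited table. The 10 genes had medians of -4.90 and -1.73, so the distance between the groups was wider in SCC1. Mcm10 stood at -4.68 and -2.20, Cdc6 at -3.03 and -2.09, Gins1 at -3.07 and -2.06, Mcm3 at -3.27 and -1.85, Cdt1 at -1.47 and -1.30 and Gins3 at -1.14 and -1.14 per the authors' deposited table. All of these serve the loading or firing of replication origins. Of 15 cyclins, kinases and inhibitors of G1 and S phase 5 had a row and 2 were called lower, Chek1 (-3.48, -1.97), a checkpoint kinase, and Cdkn2c (-1.64, -1.46), an inhibitor of Cdk4 and Cdk6, per the authors' deposited table. Cdkn2b, another such inhibitor, was higher in quiescent cells of both tumours, at 0.91 and 0.92 per the authors' deposited table, and was not called.

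**Figure D3:**
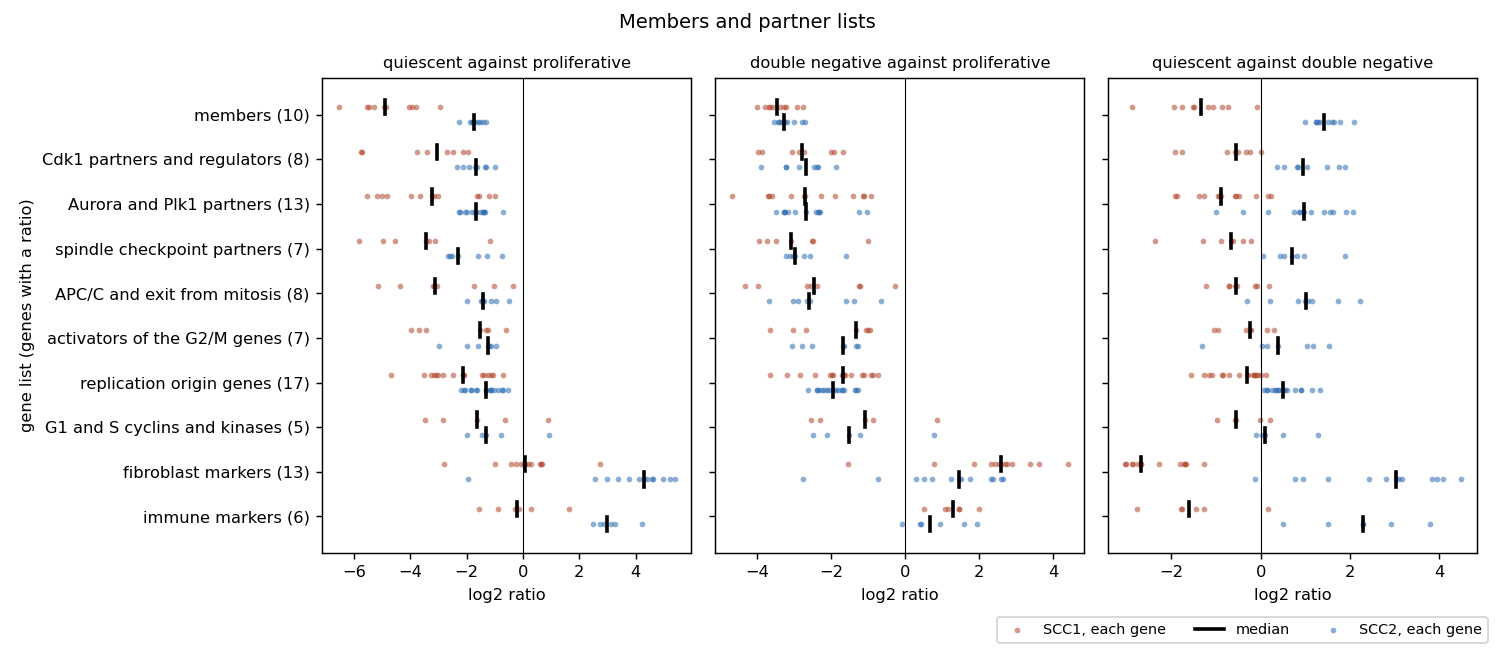
Log2 ratio (x axis) of each gene of the 10 lists with at least 5 genes in the table (y axis), SCC1 above and SCC2 below in each row, with a bar at the median. The 10 genes have the lowest SCC1 median of the lists shown for quiescent against proliferative cells, -4.90, and fibroblast and immune markers move apart between the tumours.

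The genes most like the group were sought among 1557 others without a ratio at the limit of the scale, by the root mean square difference from the median profile of the 10 over 6 log2 columns. They were Hmmr (0.104), 2810417H13Rik (0.146), Spag5 (0.166), Cdca3 (0.255) and Birc5 (0.265). Hmmr had ratios for quiescent against double negative cells of -1.38 in SCC1 and 1.42 in SCC2, per the authors' deposited table, close to the group medians of -1.34 and 1.42. Spag5, a spindle protein, stood at -1.61 and 1.27 per the authors' deposited table. By the same measure the single nearest gene was the topoisomerase gene Top2a for Nek2 (0.166), the Ndc80 complex gene Spc25 for Aurka (0.171), Pbk for Aurkb (0.171), Cenph for Cdk1 (0.179) and Hmmr for Plk1 (0.153). For Ttk it was the kinesin gene Kif22 (0.26), for Bub1 Shcbp1 (0.102), for Bub1b the condensin gene Ncapd2 (0.237), for Melk Birc5 (0.132) and for Cdc25c the DNA glycosylase gene Neil3 (0.128). The 6 columns come from 6 libraries and share them, so likeness rests on few independent values.

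Farthest from the median profile were Bub1b, at 1.01, and Cdc25c, at 0.923. They lie at opposite ends in SCC1, Bub1b with the smallest and Cdc25c with the largest reduction in quiescent cells, and near each other in SCC2.

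Accessible chromatin was found at each of the 10 genes. An ATAC peak lay within 10 kb of 10 of 10 gene bodies, beside 93.9% of 1600 table genes with coordinates and 97.8% of 371 genes called lower in quiescent cells. The median number of peaks was 2 for the 10 genes and for the table genes. For each of the 10 a peak covered one end of the gene body, and the share of all genes with such a peak is not given here. In build GRCm38.p6 the gene bodies of the entry kinases are at chr10:69335146-69352912 (Cdk1), chr7:122159435-122169884 (Plk1) and chr1:191821449-191833049 (Nek2). The Aurora genes are at chr2:172356190-172370886 (Aurka) and chr11:69045624-69051664 (Aurkb), and Melk is at chr4:44300909-44364675. The checkpoint genes are at chr9:83834651-83872390 (Ttk), chr2:127800197-127831859 (Bub1) and chr2:118598202-118641592 (Bub1b). Of the 10, 8 have a promoter entry in the reference (all but Aurkb and Cdc25c), and the 300 base window from 250 before to 50 after the start site was overlapped by a peak for 8 of 8. The same share was 71.3% of 1513 promoters of table genes and 35.5% of all 32851 promoters. The list merges peaks over libraries and gives no height, so it does not show whether the populations differ in accessibility here.

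The peaks over the start sites were 550 to 900 bp wide. That of Plk1, chr7:122158751-122159650, reached from -684 to 215 bp of the start site, and that of Ttk, chr9:83834001-83834900, from -688 to 211 bp. The peak of Bub1, chr2:127831651-127832200, and that of Bub1b, chr2:118597901-118598450, were narrower, at 550 bp each. Other peaks were 3199 bp from the gene for Nek2, 3151 bp for Ttk and 7447 bp for Bub1. Cdk1 had one inside the gene body, 12362 bp after its start site.

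Promoters of G2/M genes are known to carry CCAAT boxes, bound by NF-Y, and a cell cycle homology region, bound by MuvB complexes, close to the start site. A match below means the letters on either strand and is no proof of binding. CCAAT was present in 7 of 8 promoter windows, all but Melk, in 37.4% of all promoters and in 57.1% of 343 promoters of genes called lower in quiescent cells. TTTGAA was present in 5 of 8, in Cdk1, Plk1, Aurka, Ttk and Bub1b, in 17.9% of all promoters and in 33.2% of those 343. TTCGAA, another form of the region, was present in 2 of 8 (Bub1 and Bub1b), in 1.56% of all promoters and in 5.25% of the 343.

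The E2F form TTTCGCGC was present in 1 of 8 (Cdk1), in 0.323% of all promoters and in 4.08% of the 343. The form TTCCCGCC was present in 0 of 8, in 2.19% of all promoters and in 8.75% of the 343. The Smad box CAGAC was present in 2 of 8, Nek2 and Bub1b, in 49.6% of all promoters and in 52.8% of the 343. Melk held none of the motifs searched. Matches to different motifs were allowed to overlap.

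The stretches around the TTTGAA matches are shown so that their surroundings can be compared, 30 bases each, 5′ to 3′ on the strand of the gene, from RefSeq build GRCm38.p6. Capitals mark the match, which in Ttk is the reverse complement TTCAAA. With the start site as 0, the first base of the match lies at -71 and -15 in Cdk1, 7 in Ttk, 30 in Plk1, 32 in Aurka and 40 in Bub1b. The coordinates are chr10:69352966-69352995 and chr10:69352910-69352939 (minus) for Cdk1, chr9:83834684-83834713 (plus) for Ttk, chr7:122159453-122159482 (plus) for Plk1, chr2:172370521-172370550 (minus) for Aurka and chr2:118598231-118598260 (plus) for Bub1b.

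Cdk1 upstream match: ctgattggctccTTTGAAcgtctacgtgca
Cdk1 match at the start site: taccgcggcgagTTTGAAactgctggcact
Plk1: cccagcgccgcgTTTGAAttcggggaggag
Aurka: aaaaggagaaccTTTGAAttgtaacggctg
Ttk: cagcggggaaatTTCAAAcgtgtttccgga
Bub1b: ctgcgtcaagagacgttaaaTTTGAAactt

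Bub1 and Plk1 are shown for the CCAAT boxes before the start site, a pair in Bub1 and 1 in Plk1. The 150 bases before the start site are given from RefSeq build GRCm38.p6, at chr2:127831860-127832009 on the minus strand for Bub1 and chr7:122159285-122159434 on the plus strand for Plk1. Capitals mark CCAAT or its reverse complement. The matches begin at -68 and -42 in Bub1 and at -14 in Plk1, counted as above. Pairs of CCAAT matches before the start site were also found in Aurka (-51 and -19) and Ttk (-65 and -28), and Cdk1 had 3 (-208, -80 and -48).

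Bub1: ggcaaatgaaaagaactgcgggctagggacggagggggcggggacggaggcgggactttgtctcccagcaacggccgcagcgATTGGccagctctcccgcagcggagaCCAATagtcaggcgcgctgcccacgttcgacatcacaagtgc
Plk1: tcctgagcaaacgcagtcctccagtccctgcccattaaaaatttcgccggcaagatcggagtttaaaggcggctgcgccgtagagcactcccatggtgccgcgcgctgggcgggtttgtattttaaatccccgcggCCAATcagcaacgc

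**Figure D4:**
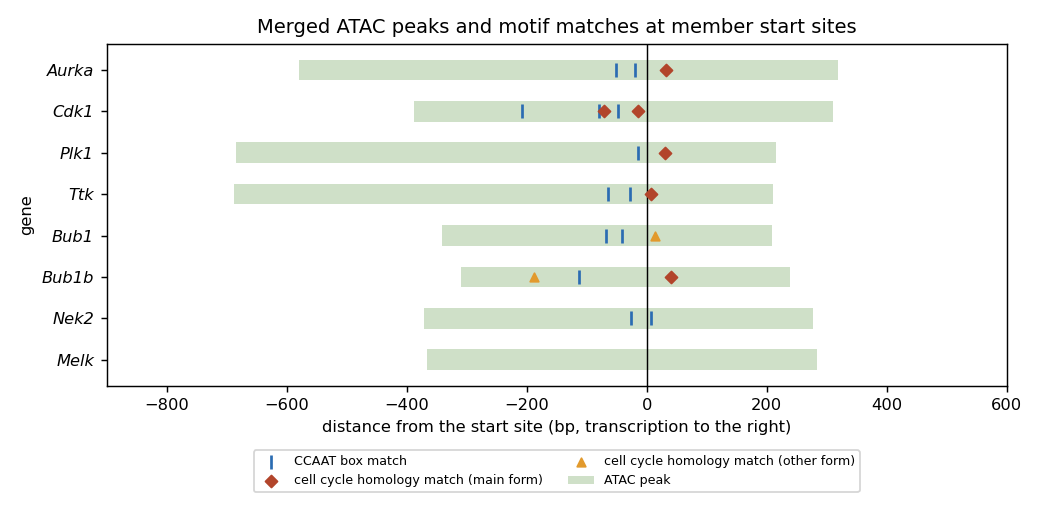
Distance in bp from the annotated start site (x axis, transcription to the right) for the 8 genes with a promoter entry (y axis), with the merged ATAC peak as a bar and the first base of each CCAAT box or cell cycle homology match as a symbol. Motifs were sought from 250 bases before to 50 after the start site. A peak spans every start site, and Melk has no match.

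A Smad2/3 site lay within 10 kb of 1 of 10 gene bodies, that of Cdc25c, beside 21.4% of the table genes and 18.9% of 371 genes called lower in quiescent cells. The sites come from 1 ChIP sample of TGFβ1-treated SCC1 cells in culture and carry no score. Within 50 kb the count was 6 of 10, beside 42% of table genes, with the nearest sites 10.7 kb from Ttk, 18.7 kb from Nek2, 19.0 kb from Melk, 22.3 kb from Bub1b and 44.1 kb from Aurkb.

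The site at Cdc25c, at positions 34751466 to 34751666 of chromosome 18, overlapped the gene body, 34732993 to 34751564, at its end with the higher coordinate. All 201 bp of it lay inside an ATAC peak from 34751301 to 34751950. No start site or strand of Cdc25c was used here, so the site is placed by the gene's end alone. Cdc25c is also the gene with the lowest quiescent ratio in SCC1 and one near the median in SCC2, and no relation between site and ratio was tested.

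Copy number called by the authors from input DNA of cultured cells touched 5 of the 10 genes. The regions over these genes were 2.2 to 63.3 Mb long. The share of all genes in such regions is not given here, so the count is a description only. Cdk1 and Cdc25c lay in regions of 3 copies in both tumours, and Aurkb in regions of 4 copies in SCC1 and 3 in SCC2. Melk lay in a region of 3 copies in SCC1 and Bub1 in one of 3 copies in SCC2. No region was listed over Aurka, Plk1, Ttk, Bub1b or Nek2. Copies in the sorted populations were not measured, and the part of these gains in the ratios was not tested.

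A nonsynonymous mutation was listed in 1 of the 10 genes, and the share of all genes with one is not given here. In proliferative cells of SCC2, Bub1b carried C2798A in exon 21, which gives A933D in the protein, at chr2:118638553 (mm10), with coding bases and residues numbered as in the authors' list. The alternative base made up 35% of 88 reads, which fits 31 reads and an exact 95% Clopper-Pearson interval of 25.3 to 46.1%, for counting error only. The position was not listed in the other 3 RNA libraries of the mutation table. Quiescent cells of SCC2 have 95 listed mutations in all and proliferative cells 411, and the depth at unlisted positions is unknown, so its absence there was not determined.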

How the data were processed

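RNA, ATAC and ChIP libraries were grouped by their titles, 19 samples in 10 groups. RNA reads were processed with TopHat2 2.0.9, Cufflinks 2.2.0 and Cuffdiff 2.2.0, per the submitters' processing notes, which name mm10, and mm9 beside it for the double negative libraries. The log2 ratios are the authors' values. How they were scaled, and the rule for entering a gene, are not stated in any source used here. ATAC peaks and Smad2/3 sites are positions without a score, made with Bowtie (and Picard 1.88 for ChIP) per the same notes. For mutations the authors deposited a read count per site and a rounded percent of alternative reads. Copies per region are the authors' whole numbers.

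The members and the 11 lists beside them were chosen with earlier results of these data known. Members are described beside all genes. After the ratios were seen, limma 3.58.1 (R 4.3.3) was added: a moderated test of the mean of the 2 within-tumour ratios against 0, with Benjamini-Hochberg adjustment over 1609 genes. The authors chose those genes, and nothing says how many mice each library came from. Named genes were the members and, per list, up to 4 called genes with the lowest and 2 with the highest mean quiescent against proliferative ratio, genes against their list, and the 5 most like genes. Some others were named beside these, such as Mybl2 and E2f1, the uncalled genes of their list. Coordinates were matched for 1600 genes, 1492 by symbol and 108 by synonym, to GRCm38.p6, which mm10 names. Overlap meant at least 1 bp. No column of an unknown sample was present. Counting, overlap and motif steps were tested on simulated data. The limma step was also run on simulated ratios, with no pass condition set. Tools were matplotlib 3.10.9, scipy 1.17.1, pandas 2.3.3 and numpy 2.4.6 under Python 3.11.15. Alternatives were the fold, each tumour alone, centring, ratios at the limit, windows and the promoter part.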

Additional observations from a re-analysis of the deposited data

Results flagged for a closer look

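The log2 ratio of quiescent against double negative cells was below 0 in SCC1 and above 0 in SCC2 for each of the 10 genes. The same signs were found for 40.8% of all genes, and for 74.6% of the 299 genes called lower in both slow populations. The difference between the tumours was not tested, since each tumour has 1 library per population. SCC1 minus SCC2 was -4.47 for Cdc25c, -3.18 for Nek2, -3.15 for Bub1, -3.09 for Aurkb, -3.02 for Plk1, -2.96 for Ttk, -2.96 for Melk, -2.34 for Cdk1, -1.97 for Aurka and -1.06 for Bub1b, from the authors' deposited table. Bub1b stood at -0.07 in SCC1 and, once centred on all genes, at 0.16. Fibroblast markers had medians of -2.68 (SCC1) and 3.04 (SCC2) in this comparison, per the authors' deposited table, and their part was not tested.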

How the results depend on the processing

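Of 70 alternative values, 46 kept the result within the set limits, 24 moved and 0 reversed. All genes called in either direction were 557 for quiescent against proliferative, 656 for double negative against proliferative and 58 for quiescent against double negative cells. At 4-fold in both tumours 1 member was called for quiescent against proliferative cells, with 104 of all genes, and all genes called were 225 for double negative against proliferative and 20 for quiescent against double negative cells. With the same sign at any size, all genes called were 1417, 1504 and 746 in the order quiescent against proliferative, double negative against proliferative and quiescent against double negative cells. With 1 tumour alone, all genes called were 879 to 1021 for quiescent against proliferative and 342 to 416 for quiescent against double negative cells. In the latter, members called were 7 to 9, in opposite directions: 7 lower in SCC1 alone and 9 higher in SCC2 alone. Leaving out the 42 genes with a ratio at the limit in any column took all genes called for quiescent against double negative cells from 58 to 38. Part of those calls thus rests on genes with a ratio at the limit of the scale. Centred on all genes, 8 members were called for quiescent against proliferative cells, without Ttk and Cdk1, and the double negative against proliferative medians were -3.12 in SCC1 and -2.94 in SCC2. Smad2/3 sites lay near 6 members within 50 kb and near 0 around start sites, where Cdc25c has no entry. Before the start site alone, TTTGAA was present in 1 member promoter, TTCGAA in 1 and CAGAC in 1. The alternatives for opposite signs, chosen after seeing the data, gave 9 when centred and 7 at 2-fold. The paired fit, limma with the tumour as replicate block, also chosen after seeing the data, called 0, 10 and 0 members and 16, 770 and 7 of all genes in the order above. It rests on 2 ratios per gene, and Benjamini-Hochberg adjustment ran over all genes. The unknown depth limits every ratio.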
